A study of Danio rerio with 6 samples.

Results

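The long arm of zebrafish chromosome 4 was taken as the genes that the deposited table lists on chromosome 4 with a start at 30 Mb or beyond in genome build GRCz11. By this rule 1509 of the 31743 listed genes (4.75%) were members, starting at position 30045493 and ending at 78068331, and the other 822 genes of chromosome 4 lay below 30 Mb. RNA was sequenced from germ cells that were sorted by their EGFP fluorescence, about 300 per library, after the trunks of TL zebrafish aged 21 days post fertilization had been dissociated. Both genotypes carried the foxl2l:egfp reporter, which marks cells with an active foxl2l promoter, and they differed in foxl2l itself, a forkhead transcription factor gene of germ cells. There were 3 libraries of foxl2l:egfp;foxl2l-/- fish and 3 of foxl2l:egfp;foxl2l+/+ fish, called foxl2l-/- and foxl2l+/+ here. Whether these libraries came from separate animals or clutches is not stated in the labels, so p-values reflect only the spread from library to library, which can be technical.

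The long arm of zebrafish chromosome 4 is known as a late-replicating, heterochromatic and repeat-rich region that holds few ordinary protein-coding genes. It carries large families of C2H2 zinc finger genes, which encode DNA-binding proteins, and of NLR genes, which encode immune sensors, together with many copies of the small structural RNAs 5S, U1 and U6. Its end is linked to sex in natural strains of zebrafish, and it also holds ribosomal DNA of a maternal type that is active in the ovary.

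The libraries held 25176401 to 39189535 counts. On the arm foxl2l-/- replicate 3 stood apart from the other foxl2l-/- libraries, as described below, and the counts of calls are therefore also given without it. The foxl2l transcript itself received 31437 to 47231 counts in foxl2l-/- and 17630 to 22491 in foxl2l+/+ libraries. Since the labels do not say which part is mutated, its level does not check the genotypes. Of 10 germ cell markers 10 were found, and together they made up 0.812% to 1.19% of counts in foxl2l-/- and 0.837% to 0.986% in foxl2l+/+ libraries. Markers of somatic gonad (12 of 12 found) took 0.00907% to 0.0106% of counts in foxl2l-/- and 0.00453% to 0.00555% in foxl2l+/+ libraries. Blood markers (8 of 9 found) took 0.00386% to 0.00611% against 0.00610% to 0.0109%, and markers of other tissues (10 of 10 found) 0.00400% to 0.00467% against 0.00279% to 0.00341%. None of the markers found was at 0 in all libraries, and the part of such cells in the results that follow was not tested.

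The arm was dense in genes without an assigned name. Of its 1509 members 873 carried clone names (names made from the sequenced clone, such as BX936303.1 or si:dkey-207l24.2), 216 carried gene names and 420 were small structural RNAs. The small RNAs comprised 244 U6, 148 U1, 23 5S and 3 5.8S entries and 2 others. Off the arm 25 U6, 14 U1, 1878 5S and 3 5.8S entries were listed, so U6 and U1 entries lay mostly on the arm and 5S entries mostly off it. Zinc finger genes, recognised by a znf symbol in the table or in the name table, numbered 171, and 162 of them were among the 216 named genes. The remaining 54 named genes were concentrated at the far end, with 14 between 70 and 75 Mb and 35 beyond 75 Mb. Only 2 members had an NLR symbol, si:dkeyp-4f2.1_1 (nlrc3l2) and si:dkeyp-86c4.1 (nlrp12l2), and since the name table gives no descriptions, other family members could not be counted here.

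The 30 Mb boundary lay close to the change in makeup but did not mark it exactly. Between 25 and 30 Mb the table already listed 61 small RNAs and 8 zinc finger genes among 139 genes, whereas the bins below 25 Mb held 6 to 10 small RNAs and at most 1 zinc finger gene each. From 30 to 70 Mb the 5 Mb bins held 15 to 27 zinc finger genes each. Beyond 70 Mb these numbers were lower again, with 5 and 4 zinc finger genes in the last bins and 4 small RNAs in each.

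**Figure D1:**
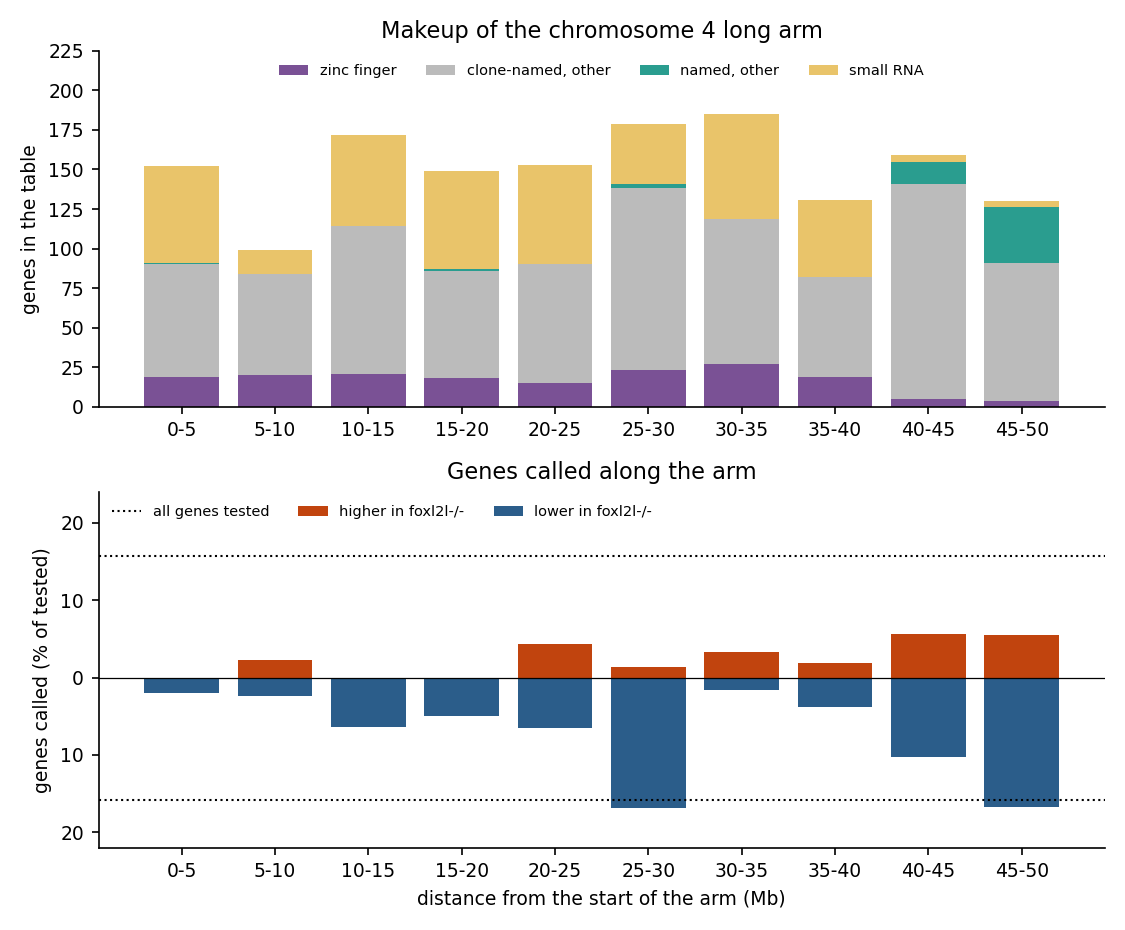
Makeup of the arm (upper panel, genes listed per 5 Mb, by class) and genes called between genotypes (lower panel, percent of the genes tested in each 5 Mb, higher in foxl2l-/- above 0 and lower in foxl2l-/- below 0), against distance from the 30 Mb boundary in Mb; dotted lines give the shares over all genes tested, 15.7% and 15.8%. The shares called stay under these lines except for lower calls at 25 to 30 Mb and 45 to 50 Mb from the boundary.

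Most members of the arm received at least 1 count in these germ cells, but levels were low. Such a count in some library was seen for 1141 members (75.6%), against 89.9% of all listed genes and 89.5% of those below 30 Mb. No library had a count for 368 members, and 330 of those were small RNAs. The foxl2l-/- libraries held 992, 1010 and 921 detected members in replicates 1 to 3 and the foxl2l+/+ libraries 975, 980 and 916. These ranges overlapped, also after each library was thinned to 25176401 counts, which left 970, 984 and 894 against 947, 930 and 916. With at least 10 counts required, 547 to 728 members were detected in foxl2l-/- and 506 to 602 in foxl2l+/+ libraries. All 171 zinc finger genes received a count somewhere, as did all 54 other named genes and 835 of the 873 clone-named genes.

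A gene had to pass a filter on low counts (edgeR's filterByExpr) to be tested. On the arm 659 members (43.7%) passed, against 622 of 822 genes (75.7%) on the rest of chromosome 4 and 74.3% of all listed genes. Among the genes tested, the median level over the 6 libraries was 0.914 TPM (transcripts per 1000000, which allows for gene length) on the arm, 5.44 TPM on the rest of the chromosome and 5.21 TPM over all genes. Zinc finger genes of the arm had a median of 0.858 TPM and those elsewhere 5.09 TPM. The other named genes of the arm stood higher, at a median of 2.40 TPM. Per 5 Mb the median of tested members ran from 0.624 TPM at 65 to 70 Mb to 1.89 TPM at 70 to 75 Mb.

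The whole arm took 0.407%, 0.539% and 0.319% of the counts in foxl2l-/- replicates 1 to 3 against 0.349%, 0.386% and 0.396% in foxl2l+/+ replicates 1 to 3. The foxl2l-/- libraries lay on both sides of the foxl2l+/+ libraries, and the ratio of the genotype means was 1.12. Below 30 Mb the shares were 2.17%, 2.19% and 2.20% in foxl2l-/- against 1.91%, 1.93% and 1.91% in foxl2l+/+ libraries. These shares of raw totals did not overlap between genotypes, whereas on the arm the replicates differed more than the genotypes did. CT583728.10 alone held 11827, 25250 and 1972 of the arm's 156462, 206789 and 115722 counts in foxl2l-/- replicates 1 to 3. In foxl2l+/+ replicates 1 to 3 it held 5534, 8210 and 4603 of 129852, 151394 and 99819. Its near copy CT583728.12 and the pair AL935186.6 and AL935186.8 split alike, as described below. These few entries thus weigh heavily on the arm's share and its spread. With the TMM-adjusted totals used for the tests the genotypes overlapped in both places, at 19861 to 20851 CPM in foxl2l-/- and 20222 to 21231 in foxl2l+/+ libraries below 30 Mb and at 2969 to 4896 against 3687 to 4260 CPM on the arm. Summed TPM, which allows for gene length, gave a foxl2l-/- to foxl2l+/+ ratio of 0.97 for the arm.

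The arm had a low share of genes called different between the genotypes, and most of its calls were lower in foxl2l-/- cells. With edgeR's quasi-likelihood test and Benjamini-Hochberg adjustment over all genes at 0.05, 72 of the 659 tested members (10.9%) were called, against 31.6% of all genes tested and 34.2% of those below 30 Mb. Of these, 18 were higher in foxl2l-/- cells (2.73% of those tested, against 15.7% of all genes) and 54 were lower (8.19%, against 15.8%). Below 30 Mb the calls were 114 higher and 99 lower. The median log2 fold change of the tested members, foxl2l-/- over foxl2l+/+, was -0.03, beside 0.05 for all genes tested and 0.05 below 30 Mb. The change was 2-fold or more for 16 of the 18 and 50 of the 54. Scaled by library totals alone, without TMM factors (trimmed means of log ratios between libraries), which moves the median of all genes to 0.25, the arm had 29 higher and 46 lower calls and a median of 0.17, the genes below 30 Mb had 149 and 72 calls, and all genes 4882 and 2723. The authors' deposited table calls 94 members at an FDR of 0.05, 31 higher and 63 lower, and 71 of the 72 are among them in the same direction. The 3 libraries of one genotype lay entirely on one side of the other 3 for 165 tested members (25.04%), against 46.7% of all genes tested. On the arm 61 of these were higher and 104 lower in foxl2l-/- cells, and over all 23576 genes tested 5633 were higher and 5368 lower. The size of these gaps to other genes was not tested. In pooled cells such as these, fewer cells with a transcript and less of it per cell cannot be told apart.

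Low counts give wide errors, so the shares were also read by level. Below 1 CPM (counts per 1000000 of the library total after TMM adjustment, averaged over the 6 libraries) stood 336 of the 659 tested members, of which 4.17% were called, against 10.2% of all genes at that level. At 1 to 3 CPM it was 6.63% of 181 members against 21.5% of all genes. From 3 CPM upward the arm came closer to other genes, with 30.1% of 83 members against 33.4% at 3 to 10 CPM, 30.6% of 36 against 39.2% at 10 to 30 CPM, and 43.5% of 23 against 45.0% at 30 CPM and over. At 3 to 10 CPM 22 of the called members were lower and 3 higher, while all genes of that level had 576 lower and 952 higher calls. At 10 to 30 CPM 10 members were lower and 1 higher, against 774 and 923 of all genes. At 30 CPM and over both leaned lower, with 7 lower and 3 higher members against 1912 and 994 of all genes. At 1 to 3 CPM 5 members were lower and 7 higher, against 311 and 595, and below 1 CPM 10 and 4, against 160 and 246. Median standard errors of the log2 fold change within a level were close, at 0.79 on the arm and 0.82 over all genes below 1 CPM and at 0.43 and 0.40 at 3 to 10 CPM.

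**Figure D2:**
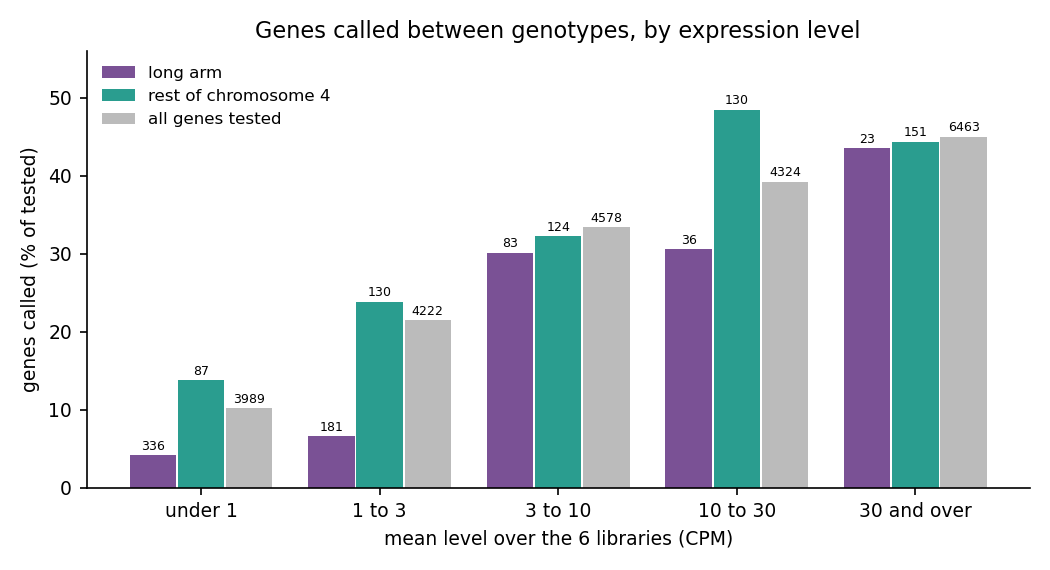
Percent of tested genes called between foxl2l-/- and foxl2l+/+ by edgeR (vertical axis) in 5 classes of mean level over the 6 libraries in CPM (horizontal axis), for the long arm, the rest of chromosome 4 and all genes tested; the number over each bar is the number tested. The arm lies under the other groups below 3 CPM, at 4.17% and 6.63%, and near them at 3 to 10 CPM and at 30 CPM and over.

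Along the arm, calls were sparse from 30 to 50 Mb and from 60 to 70 Mb (1.96% to 6.41% per bin) and more frequent elsewhere. At 30 to 35 Mb 1 of 51 tested members was called. At 50 to 55 Mb 5 of 46 were called (10.9%), which is the share of the whole arm. At 55 to 60 Mb there were 1 higher and 12 lower calls among 71 (18.3%). Among the 12 were CT583728.1, CT583728.13, CT583728.24 and CT583728.7 of a single clone, described below, which may not be separate measurements. At 70 to 75 Mb there were 6 higher and 11 lower among 107 (15.9%), and from 75 Mb to the end 5 higher and 15 lower among 90 (22.2%). Over all genes tested 31.6% were called, 15.7% higher and 15.8% lower. Below the boundary, the 25 to 30 Mb bin had 16 higher calls and 1 lower among 69 tested genes (24.6%). Most calls there were thus higher, while most on the arm were lower, and this difference was not tested. Split at 70 Mb, the arm had 35 of 462 tested members called (7.58%) before and 37 of 197 (18.8%) beyond, where levels were also higher, with a median of 2.56 CPM against 0.851 CPM.

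Few zinc finger genes of the arm were called. Of the 125 tested, 1 was higher and 2 were lower in foxl2l-/- cells, which is 2.40%, and the median log2 fold change was -0.03. In the same test 36 of the 176 zinc finger genes tested elsewhere in the genome were higher and 12 were lower (27.3%), with a median of 0.20. Read at like levels, 1 of 62 arm genes and 2 of 27 others were called under 1 CPM, and 1 of 48 and 4 of 31 at 1 to 3 CPM. At 3 to 10 CPM 1 of 13 arm genes and 9 of 35 others were called. Scaled by library totals the arm's zinc finger genes had 3 higher calls and 1 lower, and by DESeq2 2 in each direction. No test of the difference between the lists was made.

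The zinc finger gene znf1061 (50426233 to 50434519, reverse strand) was the one called higher. It stood at 2.30, 1.59 and 1.31 CPM in foxl2l-/- replicates 1 to 3 against 0.227, 0.422 and 0.126 CPM in foxl2l+/+ replicates 1 to 3. The lowest foxl2l-/- library exceeded the highest foxl2l+/+ library, and the log2 fold change was 2.70 ± 0.68 (SE; edgeR adjusted p 0.00984). Lower were znf569l, at 0.660 ± 0.365 CPM in foxl2l-/- against 2.48 ± 0.860 CPM in foxl2l+/+ cells (SD, n = 3; log2 fold change -1.90 ± 0.59), and si:dkey-172k15.4 (znf1185 in the name table), at 3.99 ± 0.662 against 9.07 ± 3.24 CPM (log2 fold change -1.18 ± 0.37). Both of these lost their call when any of several single libraries was left out, foxl2l-/- replicate 2 or 3 among them, and the adjusted p by edgeR then reached at most 0.0973 for znf569l and 0.110 for si:dkey-172k15.4. With all libraries, the call of si:dkey-172k15.4 also ended with library totals (edgeR adjusted p 0.0604). It ended as well on either TPM scale (limma-trend adjusted p 0.132 and 0.147), while znf569l kept its call under these settings. The gene znf1009_2 overlaps si:dkey-172k15.6 and, by 807 bp, si:dkey-240n22.8 on the same strand, at means of 0.811 and 6.81 CPM, so reads may be mixed. It stood at 4.72 ± 0.832 against 2.19 ± 0.496 CPM and did not pass the test (log2 fold change 1.11 ± 0.40, edgeR adjusted p 0.0520). It passed with library totals (edgeR adjusted p 0.0263), DESeq2 (0.0229), limma-voom (0.0274) and limma-trend on either TPM scale (0.0328 and 0.0495), and the authors' deposited table gives it an FDR of 0.0499. The most abundant zinc finger genes, chosen after their values were seen, were znf1141 at 11.3 ± 2.67 CPM in foxl2l-/- and 11.7 ± 5.37 in foxl2l+/+ cells and znf989 at 11.1 ± 3.88 and 9.40 ± 0.491 CPM. Neither passed the test, with log2 fold changes of -0.04 ± 0.35 and 0.24 ± 0.32.

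The NLR members did not pass the filter on low counts. In total si:dkeyp-4f2.1_1 had 3, 8 and 1 counts in foxl2l-/- and 2, 3 and 5 in foxl2l+/+ replicates 1 to 3, and si:dkeyp-86c4.1 had 6, 20 and 2 against 4, 2 and 7. Elsewhere in the genome 16 genes with NLR symbols were tested and 4 (25%) were called, all 4 higher in foxl2l-/- cells. Over all genes tested 31.6% were called and 15.7% were higher.

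The 3 foxl2l-/- libraries did not behave alike on the arm. For each tested gene and library, the log2 level (CPM plus 0.5) was set against the gene's mean over the 6 libraries, and the median of these deviations was taken over a group of genes. For zinc finger genes of the arm this median was 0.20, 0.15 and -0.44 in foxl2l-/- replicates 1 to 3 against 0.21, -0.10 and -0.04 in foxl2l+/+ replicates 1 to 3. For the other clone-named genes of the arm it was 0.09, 0.14 and -0.40 in foxl2l-/- and 0.05, 0.00 and 0.04 in foxl2l+/+ libraries, so foxl2l-/- replicate 3 was the low library in both groups. Named genes of the arm other than zinc finger genes gave -0.19, 0.01 and -0.02 in foxl2l-/- libraries, and the rest of chromosome 4 gave 0.05, 0.01 and 0.02, without such a gap.

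Counted gene by gene, foxl2l-/- replicate 3 was below both other foxl2l-/- replicates for 446 of the 659 tested members (67.7%) and for 92 of 125 zinc finger genes (73.6%). Over all genes this was so for 41.3%, below 30 Mb for 39.5%, for zinc finger genes elsewhere for 44.9% and for clone-named genes elsewhere for 51.8%. Among genes with a mean under 3 CPM, the median deviation of this library was -0.37 on the arm and 0.00 off the arm. Off the arm it was -0.15 for clone-named genes of that level, against 0.08 and 0.12 in foxl2l-/- replicates 1 and 2, and 0.12 for named genes. Arm members with a mean of 3 CPM and over stood at -0.52 in this library, against -0.12 and 0.02 in foxl2l-/- replicates 1 and 2. Over all levels clone-named genes off the arm stood at -0.15 in this library, and clone-named genes below 30 Mb at -0.22. The library had 36292276 counts, close to the other foxl2l-/- libraries. A batch or date is given nowhere in the labels, and the part of such a factor was not tested.

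Without foxl2l-/- replicate 3, the lone pair of foxl2l-/- libraries gave 25 higher and 49 lower calls on the arm among 727 tested, and the median log2 fold change moved from -0.03 to 0.16, while that of all genes was 0.03. Of the 72 calls 58 were kept in the same direction. The share called was then 10.2% on the arm against 29.1% of all genes and 31.8% below 30 Mb, beside 10.9%, 31.6% and 34.2% with all 6 libraries. Zinc finger genes of the arm then had 2 calls, both higher, and a median of 0.23.

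**Figure D3:**
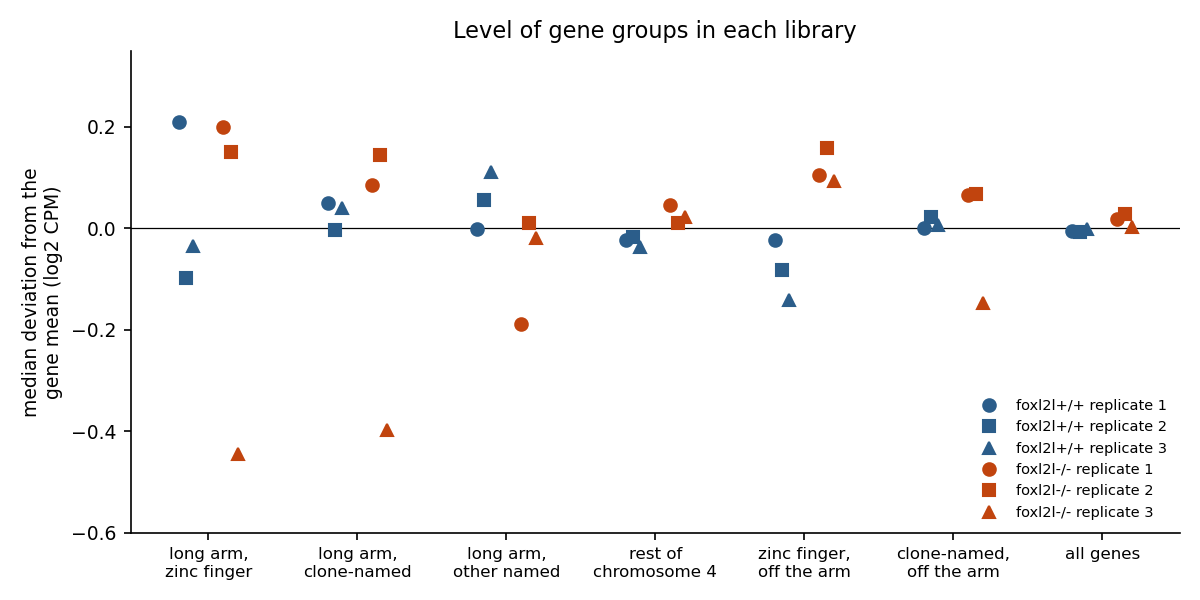
Median deviation from each gene's 6-library mean (vertical axis, log2 CPM) for each library, by gene group (horizontal axis); colours give the genotype and symbols the replicate number. The library foxl2l-/- replicate 3 lies at -0.44 and -0.40 in the zinc finger and other clone-named genes of the arm, and no library lies below -0.20 in the other groups plotted.

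The small RNA entries were mostly silent in these libraries, which were made with a kit that starts cDNA from poly(A) tails, absent from most such RNAs; the part of this step was not tested. Counts were seen for 90 of the 420, and 2 were tested. Both were called lower in foxl2l-/- cells and are described below. Of 44 small RNAs tested elsewhere in the genome, 23 (52.3%) were called lower and 2 higher, with a median log2 fold change of -2.32. The shares over all genes tested were 15.8% lower and 15.7% higher, with a median of 0.05. Lower calls of small RNAs were thus not particular to the arm, and a difference between the places was not tested. The 244 U6 entries together had 13, 18 and 6 counts in foxl2l-/- and 6, 7 and 2 in foxl2l+/+ libraries, the 23 5S entries at most 4 in any library, and the 148 U1 entries 54, 33 and 21 against 64, 157 and 53. One U1 entry, RF00003_145 (69153546 to 69153694), had 1 count in each foxl2l-/- library and 37, 20 and 8 in foxl2l+/+ replicates 1 to 3. Per count sequenced it was 24.1-fold higher in foxl2l+/+ (exact 95% interval 7.89 to 119.9, counting error only; edgeR adjusted p 0.00407), but it lies inside zgc:173615 on the same strand, so its reads may belong to that gene.

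Among the 5.8S rRNA entries, 1 of 6 in the genome received counts. This was RF00002_4 near the end of the arm (77560655 to 77560810, reverse strand), with 289, 433 and 179 counts in foxl2l-/- and 752, 970 and 573 in foxl2l+/+ replicates 1 to 3. The level was 7.35 ± 2.83 CPM in foxl2l-/- and 24.3 ± 2.97 in foxl2l+/+ cells (SD, n = 3) without overlap, a log2 fold change of -1.72 ± 0.32 (edgeR adjusted p 0.00162). The 3 entries on chromosomes 1, 5 and 7 and the other 2 on the arm had no count, and reads of near-identical copies could have been assigned to a single one. The 5.8S RNA lies between the large and small ribosomal RNAs in one precursor transcript.

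Next to it, 416 bp away, was AL935186.9 (77561226 to 77561679), the member with the highest level per length, at 828 TPM over the 6 libraries. It stood at 77.4, 130 and 71.2 CPM in foxl2l-/- and 170, 460 and 408 in foxl2l+/+ replicates 1 to 3, a log2 fold change of -1.90 ± 0.34 (edgeR adjusted p 0.00126). AL935186.10 on the other side (77557112 to 77557279) also fell, from 14.0 ± 3.48 to 5.59 ± 0.644 CPM (log2 fold change -1.32 ± 0.31). All 3 entries of this stretch were thus lower in every foxl2l-/- library than in any foxl2l+/+ library.

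The neighbouring entries AL935186.6 and AL935186.8 behaved otherwise. Their counts differed by no more than a factor of 1.09 in any library, so they are read as copies that share reads and as 1 measurement. AL935186.8 stood at 117, 224 and 10.1 CPM in foxl2l-/- replicates 1 to 3 against 46.8, 48.0 and 41.6 CPM in foxl2l+/+ replicates 1 to 3. Here 2 foxl2l-/- libraries were above and foxl2l-/- replicate 3 below all foxl2l+/+ libraries, and the entry did not pass the test (log2 fold change 1.37 ± 0.66, edgeR adjusted p 0.138). Without foxl2l-/- replicate 3 it was called higher, at 1.91 (edgeR adjusted p 0.000261), and without foxl2l-/- replicate 2 it was at 0.49. A second clone, between 55 and 60 Mb, showed the same split. Its entries CT583728.10 and CT583728.12, again alike to a factor of 1.09, were at 295, 598 and 50.6 CPM (CT583728.10) in foxl2l-/- and 157, 231 and 194 CPM in foxl2l+/+ libraries and did not pass the test (log2 fold change 0.70 ± 0.56, edgeR adjusted p 0.373). Without foxl2l-/- replicate 2 this value turned to -0.16, and without foxl2l-/- replicate 3 it was 1.21 and passed (edgeR adjusted p 0.00571).

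Shorter and longer entries of the same clone were lower. CT583728.1 (55724043 to 55724313) was at 57.5 ± 23.96 CPM in foxl2l-/- and 131 ± 50.8 in foxl2l+/+ cells (log2 fold change -1.19 ± 0.34, edgeR adjusted p 0.0196), with overlapping libraries, and the call ended without foxl2l+/+ replicate 2 or 3 (edgeR adjusted p 0.0919 and 0.0708). CT583728.13, CT583728.24 and CT583728.7, chosen after their values were seen, also fell, with log2 fold changes of -1.22, -1.36 and -1.38. A 5.8S entry without counts, RF00002_2, lies within this clone at 55779607. Leaving out 32 entries (the 5.8S genes, the AL935186 entries named here and all of CT583728), an alternative added after seeing the data, left 18 higher and 47 lower calls on the arm.

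**Figure D4:**
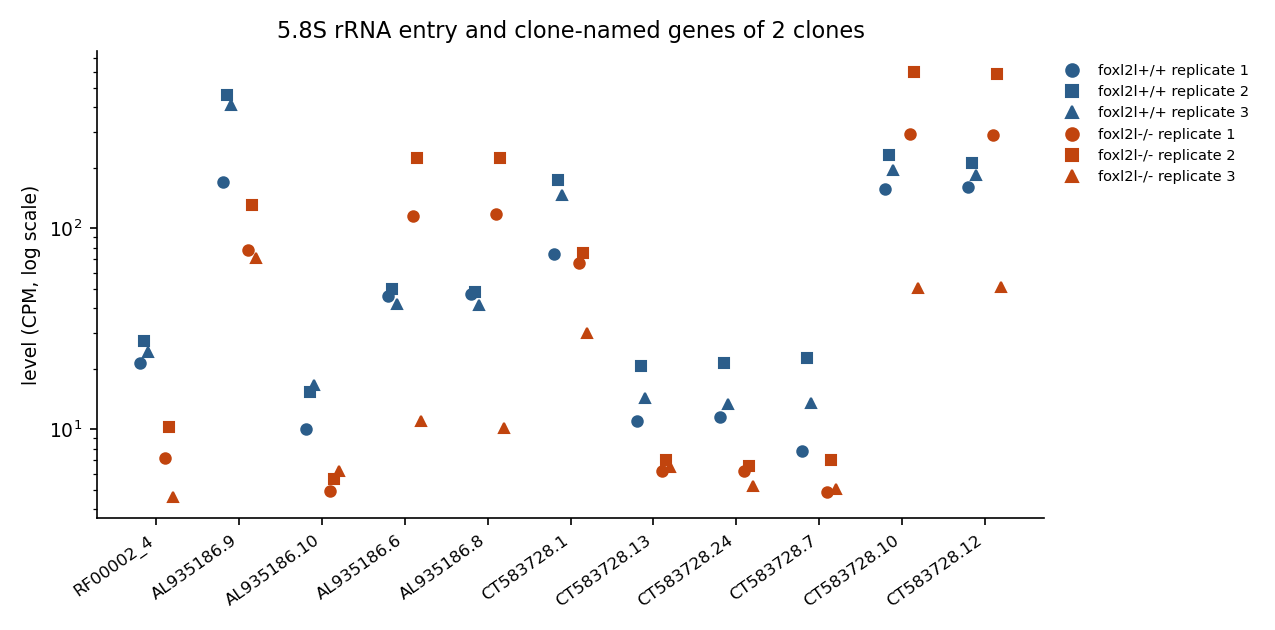
Level in CPM (vertical axis, log scale) of the 5.8S rRNA entry RF00002_4 and of entries of the clones AL935186 and CT583728 in each library; colours give the genotype and symbols the replicate number. RF00002_4, AL935186.9 and AL935186.10 are lower in every foxl2l-/- library, while AL935186.6, AL935186.8, CT583728.10 and CT583728.12 have foxl2l-/- replicate 3 far below replicates 1 and 2.

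Clone-named genes made up most of the members tested (496 of 659) and of the calls (59 of 72). Of the 496, 14 were higher and 45 lower in foxl2l-/- cells (11.9%, close to the 10.9% of all tested members). Elsewhere 29.4% of the clone-named genes tested were called (846 higher and 952 lower). A clone name gives no function, so those of the arm are described by position and level. Lower genes ranged over the whole arm. Among the 111 tested members with 5 CPM or more in the higher genotype, 7 (6.31%) were called higher and 36 (32.4%) lower without overlap between genotypes. Under the same filter the shares over all genes were 19.3% and 22.0%, and below 30 Mb 23.9% and 20.7%; the difference was not tested.

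The steepest fall of these was that of BX936303.1 (54268618 to 54271400, reverse strand). It stood at 0.425, 0.426 and 0.385 CPM in foxl2l-/- and at 11.1, 5.35 and 9.11 in foxl2l+/+ replicates 1 to 3. The foxl2l-/- libraries were all under 0.5 CPM and all foxl2l+/+ libraries above 5 CPM, and the log2 fold change was -4.36 ± 0.45 (edgeR adjusted p 3.41e-05). BX942819.3 (49278098 to 49281232) fell from 7.64 ± 1.64 to 0.616 ± 0.211 CPM and BX004873.1 (66618956 to 66621983) from 6.09 ± 2.90 to 0.4996 ± 0.181 CPM, log2 fold changes of -3.63 ± 0.45 and -3.60 ± 0.52. BX088583.2 fell from 8.12 ± 2.66 to 0.893 ± 0.212 CPM (-3.18 ± 0.43) and BX957252.1 from 10.5 ± 3.60 to 1.41 ± 0.872 CPM (-2.89 ± 0.50). BX957252.1 lies inside si:ch211-106j21.4 and zgc:110171 on the same strand, at means of 0.517 and 0.441 CPM. BX942819.3 and BX088583.2 lie inside si:ch211-42i6.2 and si:ch211-211k8.12 on the opposite strand, at means of 0.390 and 1.30 CPM. Reads of these genes may be mixed.

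The rest of the 10 lower genes chosen by size of change, all without overlap between genotypes and at 5 CPM or more in foxl2l+/+ cells, follow. The gene si:dkey-207l24.2 (37760928 to 37766174) was at 2.20, 1.82 and 2.51 CPM in foxl2l-/- and 13.9, 16.4 and 11.6 in foxl2l+/+ libraries, a log2 fold change of -2.68 ± 0.33 (edgeR adjusted p 0.000109). CT025669.1 fell from 14.97 ± 2.23 to 2.37 ± 0.780 CPM (-2.66 ± 0.35), and si:ch211-181p13.2 from 15.8 ± 5.45 to 2.97 ± 0.504 CPM (-2.41 ± 0.36). Nearer the end, si:cabz01021430.2 (starting at 73273857) fell from 6.07 ± 2.32 to 0.981 ± 0.648 CPM (-2.62 ± 0.58) and si:ch73-170d6.2 (starting at 73085993) from 12.02 ± 1.02 to 2.39 ± 1.148 CPM (-2.33 ± 0.40). Of these, si:cabz01021430.2 overlaps zgc:171727 and si:cabz01021426.2 on the same strand, at means of 0.390 and 3.03 CPM, so reads may be mixed. Likewise si:ch211-181p13.2 lies inside CR382294.1 on the opposite strand, at a mean of 0.114 CPM. The next called gene to si:ch211-181p13.2 was si:ch211-73m21.1, 7485 bp away, with a log2 fold change of -2.07 ± 0.48, and that to BX942819.3 was CR293502.1, 19494 bp away, at -2.94 ± 0.73; both neighbours were chosen after their values were seen.

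Among the higher genes, CR749167.2 (39742119 to 39747002, forward strand) had the largest level. It stood at 440, 336 and 282 CPM in foxl2l-/- and 75.0, 90.8 and 91.3 in foxl2l+/+ replicates 1 to 3, and every foxl2l-/- library was more than 3-fold above the highest foxl2l+/+ library. The log2 fold change was 2.04 ± 0.20 (edgeR adjusted p 2.4e-05). The 35 to 40 Mb bin that holds it took 0.0445% of the counts in foxl2l-/- and 0.0148% in foxl2l+/+ libraries. CT737123.1 (71154171 to 71155563) rose from 1.59 ± 0.720 to 5.35 ± 0.803 CPM (1.74 ± 0.44), and BX640547.1 from 3.64 ± 0.796 to 8.61 ± 1.84 CPM (1.24 ± 0.35), the latter call ending when foxl2l-/- replicate 2 or foxl2l+/+ replicate 2 or 3 was left out (edgeR adjusted p 0.0554 to 0.0741). The gene si:ch211-108c17.2_1 was at 85.7 ± 26.3 against 50.2 ± 10.5 CPM (0.77 ± 0.24), and its call ended without foxl2l-/- replicate 3 (edgeR adjusted p 0.0948) and without foxl2l+/+ replicate 1 or 2.

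**Figure D5:**
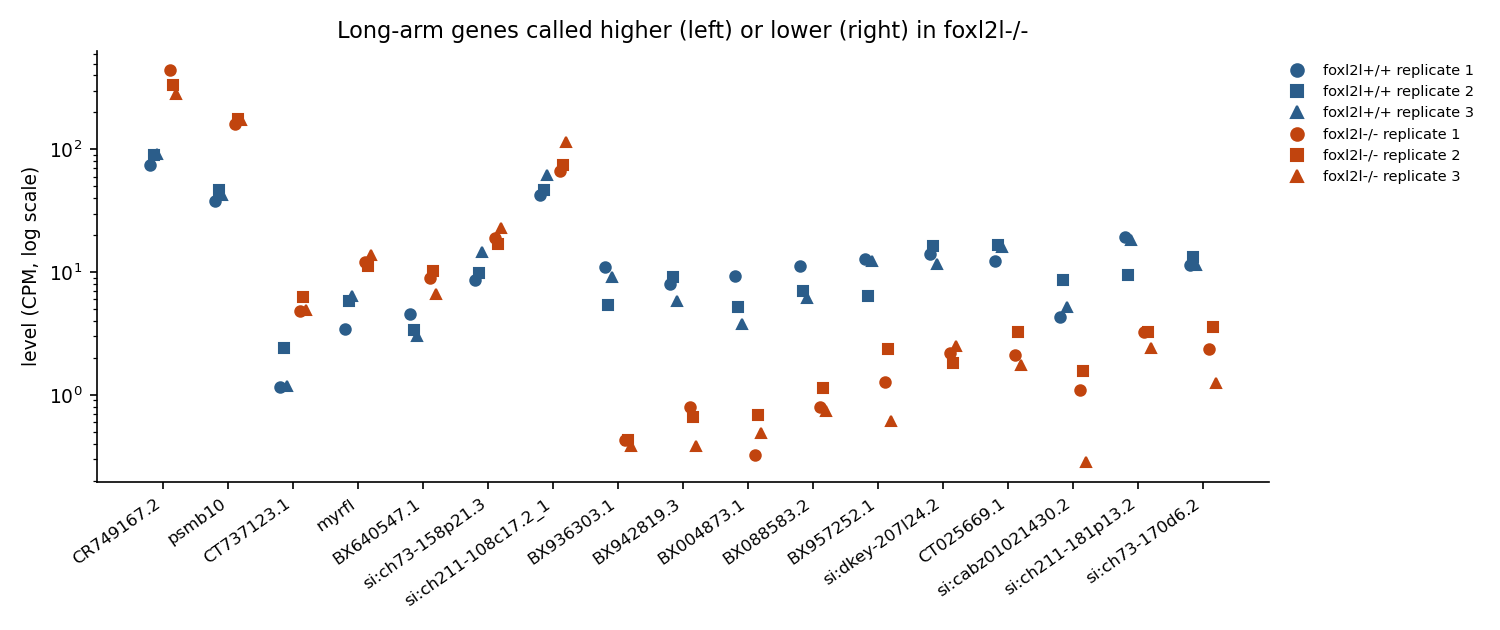
Level in CPM (vertical axis, log scale) of the 7 members called higher and the 10 called lower that were chosen by size of change, without overlap between genotypes and with a mean of 5 CPM or more where higher, in each library; colours give the genotype and symbols the replicate number. BX936303.1 lies at 0.385 to 0.426 CPM in foxl2l-/- and 5.35 to 11.1 in foxl2l+/+ libraries, and psmb10 at 161 to 176 and 37.9 to 46.7 CPM.

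Among the 43 named genes tested that were not zinc finger genes, 3 were higher and 6 lower in foxl2l-/- cells (20.9%), against 33.1% of the named genes tested off the arm. Scaled by library totals they had 5 higher and 4 lower calls. The smallest p belonged to psmb10 (77207693 to 77218637, reverse strand), which encodes a catalytic subunit of the immunoproteasome, the proteasome form that produces peptides for antigen presentation. It stood at 161, 176 and 174 CPM in foxl2l-/- and at 37.9, 46.7 and 42.7 in foxl2l+/+ replicates 1 to 3. The genotypes were far apart and the replicates close, and the log2 fold change was 2.004 ± 0.18 (edgeR adjusted p 8.97e-06). Its neighbours went the other way: si:dkey-172k15.4, described above, begins 328 bp beyond it, and si:dkey-172k15.6, chosen after its values were seen, spans several other listed genes, ends 4956 bp before it and fell from 1.42 ± 0.0578 to 0.197 ± 0.0380 CPM.

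The gene si:ch73-158p21.3, named mhc2d4b in the name table and so of the MHC class II family that presents peptides to T cells, was at 19.1, 17.1 and 23.1 CPM in foxl2l-/- and 8.66, 9.85 and 14.5 in foxl2l+/+ libraries, a log2 fold change of 0.84 ± 0.29 (edgeR adjusted p 0.0397). This call ended without foxl2l-/- replicate 1, 2 or 3 or foxl2l+/+ replicate 1 or 2, with adjusted p by edgeR of 0.0586 to 0.127. The interleukin-17 receptor gene il17ra1b, chosen after its values were seen, fell from 1.58 ± 0.746 to 0.274 ± 0.181 CPM (log2 fold change -2.52 ± 0.75, edgeR adjusted p 0.0231), and it overlaps il17ra2 on the same strand, so reads of the pair may be mixed. The ms4a17a genes, a tandem family of membrane proteins with 15 members on the arm, had 8 tested. Of these ms4a17a.8, chosen after its values were seen, fell from 7.03 ± 0.996 to 2.89 ± 0.902 CPM (-1.28 ± 0.38), and the other 7 did not pass the test. The file and the name table exchange the names of ms4a17a.8 and ms4a17a.9, and the names here are those of the file, with ms4a17a.8 at 76608282 to 76633286. Its neighbour ms4a17a.9 was at 3.30 ± 1.07 in foxl2l-/- and 0.894 ± 0.776 CPM in foxl2l+/+ cells and did not pass (1.86 ± 0.72, edgeR adjusted p 0.0684); as near copies they may share reads.

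Of the membrane transporter genes, slco1d1 (77389668 to 77432218), of the organic anion transporter family, rose from 0.142, 0.619 and 0.126 CPM in foxl2l+/+ to 2.77, 1.23 and 2.77 CPM in foxl2l-/- libraries. The libraries did not overlap, though levels were low, and the log2 fold change was 2.89 ± 0.74 (edgeR adjusted p 0.0106). The other 4 slco1 genes tested did not pass the test. The gene myrfl, related to a membrane-bound transcription factor of myelin-forming cells, rose from 5.21 ± 1.54 to 12.4 ± 1.36 CPM (1.25 ± 0.33, edgeR adjusted p 0.0122).

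The remaining named genes with a call were lower. The gene ikbip, whose human counterpart encodes a protein that binds an IkB kinase, was at 9.62, 13.7 and 18.1 CPM in foxl2l-/- and 21.8, 36.1 and 36.4 in foxl2l+/+ libraries (log2 fold change -1.19 ± 0.30, edgeR adjusted p 0.0101). Its call ended on the TPM scale (limma-trend adjusted p 0.0784 with a pseudocount of 1) and without foxl2l+/+ replicate 3 (edgeR adjusted p 0.0541). The gene overlaps terfa, at a mean of 63.9 CPM, by 945 bp on the same strand, so reads of the pair may be mixed. Chosen after their values were seen, nup50, a nuclear pore protein gene, fell from 212 ± 6.62 to 142 ± 23.8 CPM (-0.58 ± 0.18), ttll1, part of an enzyme that adds glutamate chains to tubulin, from 53.4 ± 1.54 to 33.4 ± 5.37 CPM (-0.68 ± 0.20), and ptprr, a receptor-type tyrosine phosphatase gene, from 20.8 ± 3.97 to 10.1 ± 2.51 CPM (-1.04 ± 0.29). Each of the 3 was lower in all foxl2l-/- libraries than in any foxl2l+/+ library. Of these, ptprr overlaps ptprb, at a mean of 47.1 CPM, by 832 bp on the opposite strand, and the libraries do not record strand.

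The chaperonin gene cct2, whose product is a subunit of the complex that folds actin and tubulin, is listed as separate entries at the very end of the arm. Whether these are parts or copies of the gene is not given. The entry cct2_2 (78022547 to 78026285), the member with the second highest level per length at 583 TPM, stood at 203, 300 and 318 CPM in foxl2l-/- and 319, 410 and 482 in foxl2l+/+ libraries. The libraries just failed to overlap, and the difference did not pass the test (log2 fold change -0.56 ± 0.21, edgeR adjusted p 0.0634). It passed with the replicate number as a block (edgeR adjusted p 0.0243), with limma-voom (adjusted p 0.0208) and without foxl2l-/- replicate 3 or foxl2l+/+ replicate 1 (edgeR adjusted p 0.0373 and 0.0412). The entry cct2_1 was at 30.9 ± 11.9 and 29.0 ± 7.72 CPM and did not pass either. Other widely expressed genes of the end, chosen after their values were seen, were not called. In foxl2l-/- and foxl2l+/+ cells rab3ip, an activator of Rab GTPases, was at 62.2 ± 15.8 and 60.7 ± 3.93 CPM (log2 fold change 0.03 ± 0.21). The gene arfgap3, a regulator of vesicle traffic, was at 49.0 ± 19.7 and 48.9 ± 11.7 CPM (0.00 ± 0.28). The telomere-binding protein gene terfa was at 56.9 ± 18.1 and 70.9 ± 22.6 CPM (-0.32 ± 0.27).

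At the boundary itself no gene was called. The members just inside were si:rp71-7l19.2_1, starting at 30045493, with a log2 fold change of -0.46 ± 0.83, and BX323560.1, with 0.72 ± 0.74. Just outside lay znf1111 and znf1128, at log2 fold changes of -0.996 ± 0.88 and -0.35 ± 0.74. All 4 genes had mean levels of at most 1.48 CPM in either genotype.

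Values of single entries carry limits set by the annotation. Of the 72 called members 34 overlap another listed gene, on either strand, and the libraries do not record strand. How reads that match several copies were assigned is not given in the sources used here, so values within gene families of the arm are uncertain.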

How the data were processed

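RNA sequencing counts and TPM of 6 libraries were taken from the table that the authors deposited. Per the file headers it holds raw counts per gene and TPM values scaled by the authors for gene length and depth, and the authors' deposited table of the genotype comparison gives log2 fold changes and FDR values. The build GRCz11 and the tool bcl2fastq come from the submitters' processing notes, and the sources used here give no aligner, counting program or annotation release. Another 12 columns of RPKM and CPM values were not used. Of the members' identifiers 1318 (87.3%) had a symbol in the name table, which gives no descriptions, so zinc finger and NLR lists rest on symbols alone.

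Counts were fitted with edgeR 4.0.16 in R 4.3.3 (filterByExpr, TMM, glmQLFit, glmQLFTest) over the 23576 genes that passed, with Benjamini-Hochberg adjustment at 0.05 over all of them, and the steps were tested on simulated data. CPM were computed on the TMM-adjusted totals. Errors are SD over 3 libraries for levels and SE for log2 fold changes. The exact interval covers counting error only. It treats reads as independent, which they are not after amplification, and leaves out the spread between libraries, so it may be too narrow.

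Members and lists were chosen with earlier results of these data known. Named are the 10 members that rose and the 10 that fell most by fold change among calls without overlap and with at least 5 CPM in the higher genotype (7 passed among the higher), the 6 with the highest TPM, up to 4 with the smallest p from the zinc finger, NLR and named lists, and the pairs of genes at each side of the boundary. Alternatives were RLE, TMMwsp and library totals as scaling, DESeq2 1.42.0, limma-voom and limma-trend (limma 3.58.1) on log2(TPM + 1) and log2(TPM + 0.1), other count filters, a 2-fold limit, the replicate number as a block, each library left out, boundaries at 25 and 35 Mb, thinned counts, a minimum of 10 counts for detection and, added after seeing the data, leaving out the entries around the 5.8S genes. No sequences are given because no sequence table of this genome was used here.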

Additional observations from a re-analysis of the deposited data

How the results depend on the processing

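The arm's 54 lower calls stayed within 1.5 times under all alternatives run (46 to 65; 41 to 49 with a library left out), and its share of genes called stayed under that of all genes in each refit with another scaling, test, filter, fold limit, block or library set. The 18 higher calls moved more: 29 with library totals, 36 with limma-voom, 32 and 31 on log2(TPM + 1) and log2(TPM + 0.1), 34 with the arm taken from 25 Mb, and 11 to 25 with a library left out, 11 without foxl2l-/- replicate 1. With no low-count filter 7.10% of the arm was called. The 3 zinc finger calls became 7 with limma-voom, 5 on either TPM scale, 5 without foxl2l+/+ replicate 1 and 1 without foxl2l+/+ replicate 3 (1 to 5 with a library left out). The 11 calls of named genes became 19 with limma-voom and 6 to 14 with a library left out, 6 without foxl2l-/- replicate 2 and 7 without foxl2l+/+ replicate 3. Clone-named calls numbered 42 to 58 with a library left out. The median log2 fold change of the arm ran from -0.18 to 0.16 and the ratio of count shares from 0.96 to 1.25 with a library left out. Detected members averaged 974 in foxl2l-/- and 957 in foxl2l+/+ libraries with 1 count required and 651 and 565 with 10, and depth limits this measure. The cause of these moves was not tested.

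Same-numbered libraries of the genotypes deviated from their group means with correlations of -0.04, 0.05 and 0.04 over genes, so the numbers are not read as pairs. With the replicate number as a block the arm had 17 higher and 53 lower calls and a median of -0.07; among the genes named by rule the block changed the call of cct2_2 alone, which it gained.

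For the 33 genes named by rule, 515 values kept direction and side of the threshold, 29 lost the call, 12 gained one and 5 turned. The turned values, none called, were those of si:rp71-7l19.2_1 (0.077 with limma-voom, 0.06 without foxl2l-/- replicate 3 and 0.49 without foxl2l+/+ replicate 3, in a range of -1.21 to 0.49 with a library left out), CT583728.10 (-0.16 without foxl2l-/- replicate 2, range -0.16 to 1.21) and znf1128 (0.10 without foxl2l-/- replicate 3, range -0.69 to 0.10). With no low-count filter the NLR members gave log2 fold changes of -0.20 ± 1.23 (si:dkeyp-4f2.1_1) and 0.60 ± 1.14 (si:dkeyp-86c4.1), neither called; the latter also passed the filter in 4 of the fits with a library left out (0.16 to 1.05, not called).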
